A study of Mus musculus with 2 samples.

Results

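The genes described are the sugar and monocarboxylate transporters of the newborn mouse kidney, from 3 solute carrier families. They are the protein-coding genes whose symbols name a member of the Slc2a, Slc5a or Slc16a family, in both deposited gene tables, with Slc5a3 left out. The choice used symbols alone and no measured value. It gave 38 genes of 21474 protein-coding genes: 12 Slc2a, 12 Slc5a and 14 Slc16a members.

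Both kidneys of each of 2 pups of the mouse strain B6NCrl were collected on postnatal day 0 for total RNA-seq, with 1 library per pup. The pups shared a mother, so the 2 libraries are littermates of 1 group, and the labels do not give their sex. There was no treatment, no mutant and no other age, so levels are described and no conditions are compared. The input was 10 ng of RNA above 200 nt, with spike-ins, and the libraries held 41584961 expected counts in pup 1 and 48823952 in pup 2.

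Slc2a genes encode facilitative GLUT carriers, which let sugars move down their gradient. Slc5a genes encode sodium-coupled carriers, which use the sodium gradient to take up sugars, monocarboxylates, inositol, vitamins and iodide against theirs. Slc16a genes encode the MCT family, whose best known members move lactate, pyruvate and ketone bodies together with a proton. In the adult proximal tubule, filtered glucose enters the cell by the apical carriers SGLT2 (Slc5a2) and SGLT1 (Slc5a1) and leaves it by basolateral GLUT2 (Slc2a2) and GLUT1 (Slc2a1). Filtered lactate is taken up by the apical carriers SMCT1 (Slc5a8) and SMCT2 (Slc5a12).

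Levels are TPM, an abundance corrected for transcript length and scaled to all transcripts of a library, given per pup or as mean ± SD with n = 2 pups. A gene counts as detected at 1 TPM or more in both pups. In bulk tissue, fewer cells of a type and less RNA per cell cannot be told apart.

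Of the 38 transporters, 30 were detected, against a background of 61.5% of all protein-coding genes. By family these were 10 of 12 Slc2a, 8 of 12 Slc5a and 12 of 14 Slc16a genes. Their levels were moderate: 15 of 38 averaged 10 TPM or more, where 40.4% of protein-coding genes did, and 0 reached a mean of 100 TPM, where 7.17% did. The median over the detected transporters was 10.5 TPM, against 17.8 TPM over all detected protein-coding genes. A gap separated detected from undetected members, since the lowest detected gene, Slc2a13, averaged 1.31 ± 0.28 TPM (SD, n = 2) and the next, Slc2a6, 0.405 ± 0.021 TPM (SD, n = 2).

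The order of levels ran from Slc2a1 at the top through Slc16a5, Slc16a1, Slc5a8, Slc2a2 and Slc2a8, so all 3 families were among the first 4. This order counts all transcripts of a gene. With protein-coding transcripts alone, Slc16a5 averaged 30.1 TPM, below Slc16a1 at 33.6 TPM and Slc5a8 at 33.5 TPM. Slc2a2 averaged 21.9 TPM by that measure, below Slc2a8 at 26.8 TPM. Of the 29 neighbouring pairs in the order, 12 did not overlap between the pups and 17 did. The overlapping runs of 3 or more genes were Slc16a1, Slc5a8 and Slc2a2; Slc5a1 to Slc5a10, by way of Slc2a4, Slc16a4 and Slc16a13; Slc5a12 down to Slc5a2; and Slc2a3 down to Slc2a12. Neighbours within these runs overlapped between the littermates, while genes farther apart in a run may not: the lowest value of Slc5a12, 6.88 TPM, lay above the highest of Slc16a10, 6.04 TPM.

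**Figure D1:**
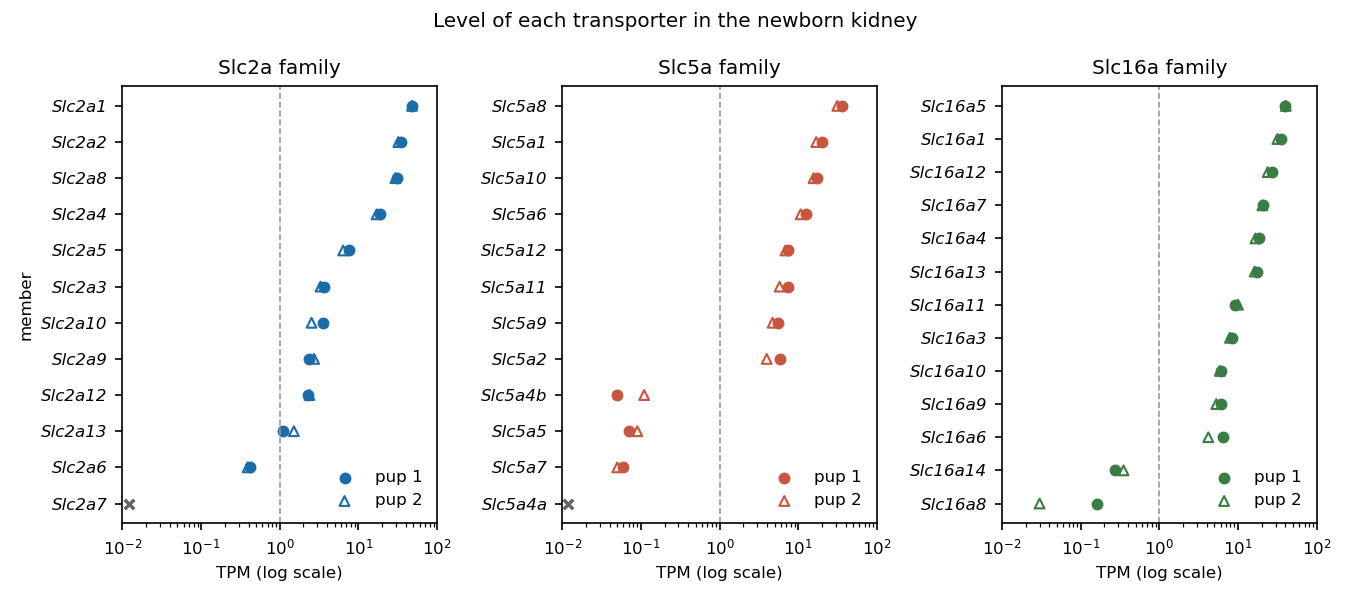
TPM of 37 of the 38 transporters on a log axis, by family, with filled circles for pup 1, open triangles for pup 2, a dashed line at 1 TPM and grey crosses at the left edge for genes at 0. The 29 genes right of the line lie close together in both pups, and Slc2a1 is the highest at a mean of 48.1 TPM.

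The Slc16a family had the largest summed level, 207 TPM in pup 1 and 194 TPM in pup 2. The Slc2a sum was 153 TPM in pup 1 and 146 TPM in pup 2, and the Slc5a sum 112 TPM in pup 1 and 96.3 TPM in pup 2. Together the 38 genes made up 0.0471% and 0.0436% of all transcripts in pups 1 and 2. Ratios between genes or families were taken within each pup as log2 of (TPM + 1), which understates differences of low genes; folds are ratios of mean TPM. A pair of genes was called when both pups gave the same sign and the mean passed a limit, the 95th percentile of between-pup differences over all protein-coding genes at the level of the lower gene. That limit comes from single genes, so it is not applied to sums, and the family ratios are given as description. The limit also leaves out any error that a gene carries alike in both pups, such as one in its transcript length. The Slc16a sum exceeded the Slc2a sum by 0.42 ± 0.01, the Slc2a sum the Slc5a sum by 0.52 ± 0.10, and the Slc16a sum the Slc5a sum by 0.94 ± 0.09 on the log2 scale (SD, n = 2). The 3 sums did not overlap between the pups. No family rested on 1 gene: the top member held 31.7% and 32.9% of the Slc2a sum (Slc2a1), 31.9% and 32.6% of the Slc5a sum (Slc5a8), and 18.9% and 20.8% of the Slc16a sum (Slc16a5) in pups 1 and 2. For single genes, the limit was 0.24 on the log2 scale when the lower gene was under 1 TPM, 0.41 from 1 to 10 TPM and 0.31 from 10 to 100 TPM. Of 21 pairs of transporters set against each other, 18 passed, 2 lay within the limit, and Slc5a4a over Slc5a4b could not reach it at its levels. The share of all possible gene pairs that would pass was not computed, so this count does not set the transporters apart from other genes. Passing means only that the 2 genes of a pair differed by more than a gene usually differs between these littermates.

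Among the glucose carriers of the plasma membrane, GLUT1 (Slc2a1, ENSMUSG00000028645.6, chr4:119108711-119137983, + strand, mm10) stood highest. It had 48.4 TPM in pup 1 and 47.9 TPM in pup 2, or 48.1 ± 0.4 TPM (SD, n = 2). GLUT1 is the carrier of basal glucose uptake in many cell types, red cells of the newborn among them. Erythroid markers were in the libraries too, 4 of 6 detected with a summed level of 2015 TPM in pup 1 and 2031 TPM in pup 2, while Gata1 averaged 0.065 TPM; their part in the level of Slc2a1 was not tested. GLUT2 (Slc2a2, ENSMUSG00000027690.9, chr3:28697903-28731359, + strand), the low-affinity carrier of liver, beta cells and proximal tubule, had 34.2 TPM in pup 1 and 32.1 TPM in pup 2. Slc2a2 was lower than Slc2a1 by a log2 ratio of -0.52 ± 0.05 (SD, n = 2), past the limit of 0.31. Counting protein-coding transcripts alone, a measure added after the transcript shares were seen, the ratio of Slc2a2 to Slc2a1 was -1.10.

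GLUT4 (Slc2a4), the carrier that insulin brings to the surface of muscle and fat cells, had 18.9 TPM in pup 1 and 17.0 TPM in pup 2. Slc2a1 exceeded it by 1.38 ± 0.09 on the log2 scale, or 2.68-fold (SD, n = 2). Of 5 markers of muscle and fat, 2 were detected, with a summed level over the list of 5.14 TPM in pup 1 and 5.17 TPM in pup 2. Tnnt3 averaged 2.79 TPM, Acta1 1.70 TPM and Myh3 0.030 TPM; their part in the level of Slc2a4 was not tested. GLUT3 (Slc2a3), the high-affinity carrier of neurons, had 3.64 TPM in pup 1 and 3.29 TPM in pup 2, and Slc2a1 exceeded it by 3.46 ± 0.07 on the log2 scale, 13.9-fold (SD, n = 2). All 4 of these glucose carriers were detected.

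The fructose carrier GLUT5 (Slc2a5) had 7.66 TPM in pup 1 and 6.39 TPM in pup 2. It was lower than Slc2a2, which also carries fructose, by a log2 ratio of -2.09 ± 0.10, so that Slc2a2 was 4.72-fold higher (SD, n = 2). GLUT9 (Slc2a9), a urate carrier, had 2.37 TPM in pup 1 and 2.73 TPM in pup 2. HMIT (Slc2a13), which takes up myo-inositol with a proton, was the lowest detected gene, with 1.11 TPM in pup 1 and 1.51 TPM in pup 2. Slc2a13 was lower than the sodium-coupled inositol carrier SMIT2 (Slc5a11, 7.31 and 5.79 TPM in pups 1 and 2) by a log2 ratio of -1.71 ± 0.38 (SD, n = 2), past the limit of 0.41. GLUT7 (Slc2a7) lies 4802 bases downstream of Slc2a5 on the same strand of chromosome 4 and had 0 counts in both pups. A count of 0 allows up to 3 counts, which is 0.0721 CPM (counts scaled to the library total) in pup 1 and 0.0614 in pup 2; these limits and the intervals between pups cover counting error only. Its neighbour Slc2a5 had 489 expected counts in pup 1 and 621 in pup 2.

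GLUT8 (Slc2a8), which sits mainly on intracellular membranes, was the third highest Slc2a member, with 30.4 TPM in pup 1 and 29.5 TPM in pup 2. Its closest relative among the members, GLUT6 (Slc2a6), also intracellular, was not detected, with 0.42 TPM in pup 1 and 0.39 TPM in pup 2. Slc2a8 exceeded Slc2a6 by 4.46 ± 0.01 on the log2 scale (SD, n = 2). The ratio of their mean levels was 74.0-fold; it rests on 26 and 29 expected counts for Slc2a6 in pups 1 and 2. GLUT10 (Slc2a10) had 3.55 TPM in pup 1 and 2.53 TPM in pup 2, and GLUT12 (Slc2a12), another insulin-responsive carrier, had 2.27 TPM in pup 1 and 2.38 TPM in pup 2. GLUT12 was lower than GLUT4 by a log2 ratio of -2.51 ± 0.14 (SD, n = 2).

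Of the sodium-coupled sugar carriers, SGLT1 (Slc5a1, ENSMUSG00000011034.4, chr5:33104219-33162870, + strand) was the highest, with 20.0 TPM in pup 1 and 16.9 TPM in pup 2. In the adult kidney it is the high-affinity glucose carrier of the late proximal tubule. SGLT2 (Slc5a2, ENSMUSG00000030781.9, chr7:128265657-128272430, + strand), the low-affinity carrier that takes up most filtered glucose in the adult early proximal tubule, had 5.82 TPM in pup 1 and 3.97 TPM in pup 2. Slc5a2 was lower than Slc5a1 by a log2 ratio of -1.74 ± 0.16 (SD, n = 2), past the limit of 0.41, so that the mean of Slc5a1 was 3.77-fold higher. The 2 genes did not overlap: the lowest value of Slc5a1 was above the highest of Slc5a2. With protein-coding transcripts alone the ratio of Slc5a2 to Slc5a1 was -2.06.

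Slc5a2 was also lower than the exit carrier Slc2a2, by a log2 ratio of -2.55 ± 0.26, and Slc5a1 was lower than Slc2a1 by -1.34 ± 0.15 (SD, n = 2 each). The small membrane protein MAP17 (Pdzk1ip1), which SGLT2 needs for activity, had 570 TPM in pup 1 and 550 TPM in pup 2. Its mean was 114-fold that of Slc5a2. The scaffold Pdzk1, which binds many apical carriers, had 330 TPM in pup 1 and 257 TPM in pup 2. Messages of its partners were thus far more abundant than that of Slc5a2 itself. All 7 early proximal tubule markers were detected, with Slc34a1, the phosphate carrier of that segment, at 287 TPM in pup 1 and 203 TPM in pup 2.

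SGLT5 (Slc5a10), a mannose and fructose carrier of the kidney, had 17.5 TPM in pup 1 and 15.7 TPM in pup 2, a range that overlapped that of Slc5a1. SGLT4 (Slc5a9), another mannose and fructose carrier, had 5.54 TPM in pup 1 and 4.72 TPM in pup 2. Slc5a10 exceeded Slc5a9 by 1.52 ± 0.03 on the log2 scale (SD, n = 2), and by 2.12 with protein-coding transcripts alone. The pair Slc5a4a and Slc5a4b, mouse counterparts of the human glucose sensor SGLT3, was not detected: Slc5a4a had 0 counts in both pups, and Slc5a4b had 5 counts in pup 1 and 13 in pup 2. They lie 36489 bases apart on chromosome 10. Their log2 ratio was -0.11 ± 0.06 (SD, n = 2); with TPM + 1 as the scale, levels this close to 0 could not reach the limit of 0.24, so no call is made for the pair.

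SMCT1 (Slc5a8, ENSMUSG00000020062.6, chr10:88885992-88929515, + strand) was the highest Slc5a gene, with 35.6 TPM in pup 1 and 31.3 TPM in pup 2. It is the high-affinity sodium-coupled carrier of lactate, pyruvate and short-chain fatty acids. SMCT2 (Slc5a12), its low-affinity relative, had 7.37 TPM in pup 1 and 6.88 TPM in pup 2. Slc5a8 exceeded Slc5a12 by 2.08 ± 0.07 on the log2 scale, 4.70-fold (SD, n = 2). The remaining Slc5a genes divided sharply. SMVT (Slc5a6), the carrier of biotin and pantothenate, had 12.5 TPM in pup 1 and 10.7 TPM in pup 2. The choline carrier of cholinergic neurons (Slc5a7) and the iodide carrier of the thyroid (Slc5a5) were not detected, with at most 0.09 TPM in either pup.

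Of the proton-coupled lactate carriers, MCT1 (Slc16a1, ENSMUSG00000032902.1, chr3:104638668-104658462, + strand), the most widespread, had 35.6 TPM in pup 1 and 31.6 TPM in pup 2. MCT2 (Slc16a7), of higher affinity, had 21.03 TPM in pup 1 and 20.4 TPM in pup 2. MCT4 (Slc16a3), the carrier of lactate export in glycolytic cells, had 8.34 TPM in pup 1 and 7.89 TPM in pup 2. The 3 genes did not overlap: Slc16a1 exceeded Slc16a7 by 0.67 ± 0.09 and Slc16a3 by 1.92 ± 0.07 on the log2 scale (SD, n = 2 each). MCT3 (Slc16a8), known from the retinal pigment epithelium, was not detected, with 8 counts in pup 1 and 2 in pup 2.

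Slc16a1 and Slc5a8, the leading proton-coupled and sodium-coupled lactate carriers, stood at about the same level. Their log2 ratio was 0.005 ± 0.010 (SD, n = 2), within the limit of 0.31 either way, and its sign differed between the pups. Basigin (Bsg), the chaperone that brings MCT1 and MCT4 to the membrane, had 879 TPM in pup 1 and 862 TPM in pup 2, and embigin (Emb), the preferred partner of MCT2, 55.2 TPM in pup 1 and 51.9 TPM in pup 2. Bsg exceeded Emb by 4.00 ± 0.04 on the log2 scale (SD, n = 2). Lactate dehydrogenase subunit A (Ldha) was lower than subunit B (Ldhb), by a log2 ratio of -0.74 ± 0.03 (SD, n = 2), past the limit of 0.25.

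Of the Slc16a genes that carry other solutes, the creatine carrier Slc16a12 (ENSMUSG00000009378.3, chr19:34668403-34747289, - strand) was the highest, with 26.9 TPM in pup 1 and 23.8 TPM in pup 2. Slc16a9, a carnitine carrier in human studies, had 6.08 TPM in pup 1 and 5.29 TPM in pup 2, and Slc16a12 exceeded it by 1.98 on the log2 scale, 4.46-fold, in both pups alike. The aromatic amino acid carrier TAT1 (Slc16a10) had 6.04 TPM in pup 1 and 5.86 TPM in pup 2.

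A large part of the Slc16a sum came from members whose substrates are less well known. Slc16a5 (MCT6, ENSMUSG00000045775.11, chr11:115462474-115474398, + strand) was second of all 38 genes, with 39.1 TPM in pup 1 and 40.5 TPM in pup 2. With protein-coding transcripts alone it had 29.1 TPM in pup 1 and 31.0 TPM in pup 2, below Slc16a1 and Slc5a8 in both pups. Slc16a4 had 18.7 TPM in pup 1 and 16.6 TPM in pup 2, and Slc16a13 17.6 TPM in pup 1 and 16.3 TPM in pup 2. These 2 were not separable, with a log2 ratio of 0.06 ± 0.04 (SD, n = 2). Slc16a11 had 9.23 TPM in pup 1 and 9.99 TPM in pup 2. Slc16a6, a ketone body carrier in zebrafish, had 6.42 TPM in pup 1 and 4.19 TPM in pup 2. Slc16a14 was not detected, with 0.31 ± 0.06 TPM (SD, n = 2). The 5 detected members and Slc16a14 together summed to 91.2 TPM in pup 1 and 87.9 TPM in pup 2, above the 65.1 and 59.9 TPM of the 4 lactate carriers in pups 1 and 2. Both sums count all transcripts. The mean protein-coding share was 75.6% for Slc16a5, 83.4% for Slc16a4 and 42.0% for Slc16a11. For the detected lactate carriers it was 96.8% or more, so the gap rests in part on transcripts that are not protein-coding.

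Slc16a11 and Slc16a13 are neighbours on chromosome 11, on opposite strands with 371 bases between them. The values of Slc16a13 were above those of Slc16a11 in both pups, without overlap. Near-identical sequence can mix the values of genes. Of the 50-base windows of each gene's transcripts at most 0.050% occurred in another member, a share reached by Slc5a4a.

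**Figure D2:**
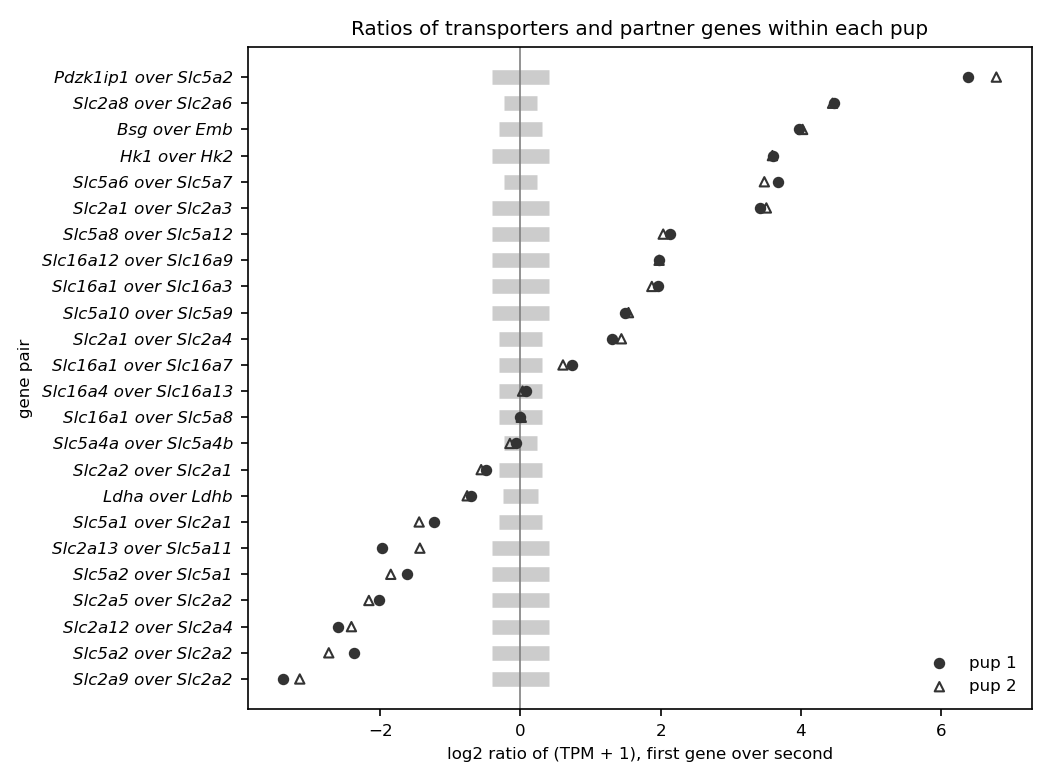
Log2 ratio of (TPM + 1) within each pup for 24 of the 25 gene pairs, 20 of them between transporters, with filled circles for pup 1, open triangles for pup 2 and grey bars for the limit on either side of 0. The points of 21 pairs lie outside their bar; those of Slc16a4 over Slc16a13, Slc16a1 over Slc5a8 and Slc5a4a over Slc5a4b lie within it, the last at levels too low to leave it.

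Other genes of the same pathways were read from lists of partners and enzymes. Of 13 accessory and regulatory genes, 12 were detected; Rsc1a1, a regulator of SGLT1, was at 0 in both pups. Of 16 enzymes that handle these sugars, inositol and lactate, 14 were detected. Ldha had 776 TPM in pup 1 and 709 TPM in pup 2, and Ldhb had 1273 TPM in pup 1 and 1203 TPM in pup 2. Hexokinase 1 (Hk1) exceeded hexokinase 2 (Hk2) by 3.60 ± 0.01 on the log2 scale, 15.3-fold (SD, n = 2). Hexokinase 3 (Hk3) was not detected, with a mean of 0.60 TPM. Khk, which starts fructose breakdown, averaged 51.8 ± 1.5 TPM (SD, n = 2), above each of the carriers.

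Not all of these messages were protein-coding. Of the 30 detected transporters, 11 had under 90% of their TPM in protein-coding transcripts in both pups, against a background of 26.3% of detected protein-coding genes. With posterior mean shares, a second estimate in the deposited tables, 17 members did, against a background of 31%. The median share was 96.5% over the detected transporters and 99.0% over all detected protein-coding genes. Of the 30 genes, 5 have a single transcript in the tables, Slc16a1, Slc5a8, Slc16a12, Slc5a1 and Slc16a10, so their share is 100% by construction. These shares are model estimates from short reads, and transcripts that differ by few bases are hard to tell apart.

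Slc2a2 had the highest level of intron-holding RNA. Its transcript Slc2a2-203, annotated as a retained intron, had 10.6 TPM in pup 1 and 11.9 TPM in pup 2, or 30.9% and 37.1% of the gene. Slc2a2-201, the coding form, had 23.7 TPM in pup 1 and 20.2 TPM in pup 2. By M21, of the 1649 bases of Slc2a2-203, 186 lie in intron 7 of Slc2a2-201 and 1463 are shared with it. The deposited levels used a Slc2a2-201 of 2573 bases, where M21 has 5569, so fewer bases may have been shared in them. How many bases of its own the estimate rests on is therefore not known. In Slc16a9, Slc16a9-202 held 29.0% and 32.0% of the gene in pups 1 and 2, with 113 of 1469 bases in intron 2 of Slc16a9-201. In Slc16a4, Slc16a4-203 held 14.2% and 18.9% in pups 1 and 2, and 1333 of its 2531 bases run into intron 6 of Slc16a4-201. The junctions that set these transcripts apart are shown as 30 exonic bases in lower case and 30 intronic bases in capitals, read 5′ to 3′ from the GENCODE M21 annotation of GRCm38, the assembly also named mm10. They lie at chr3:28721673-28721732 (+ strand, Slc2a2), chr10:70267062-70267121 (+ strand, Slc16a9) and chr3:107301191-107301250 (+ strand, Slc16a4).
Slc2a2 intron 7, 3′ end: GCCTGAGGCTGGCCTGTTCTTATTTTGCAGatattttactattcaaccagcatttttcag
Slc16a9 intron 2, 3′ end: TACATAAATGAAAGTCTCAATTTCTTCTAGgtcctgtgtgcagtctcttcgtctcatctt
Slc16a4 intron 6, 5′ end: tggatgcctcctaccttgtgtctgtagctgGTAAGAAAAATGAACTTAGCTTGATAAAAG

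Slc5a2 was the other glucose carrier of the tubule with such transcripts. Coding Slc5a2-202 had 3.85 TPM in pup 1 and 3.43 TPM in pup 2, which was 66.2% and 86.4% of the gene. Slc5a2-208 and Slc5a2-203, both annotated as retained introns, together with Slc5a2-204 made up the rest, with Slc5a2-208 at 18.3% in pup 1 and 6.80% in pup 2. Both retained-intron transcripts hold part of intron 3 of Slc5a2-202, whose ends lie at chr7:128266568-128266627 and chr7:128267307-128267366 (+ strand, GRCm38). They are shown with 30 exonic bases in lower case and 30 intronic bases in capitals.
Slc5a2 intron 3, 5′ end: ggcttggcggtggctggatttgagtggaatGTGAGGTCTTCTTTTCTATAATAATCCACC
Slc5a2 intron 3, 3′ end: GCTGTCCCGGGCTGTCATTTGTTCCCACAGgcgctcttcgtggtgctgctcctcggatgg

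The pups differed in the transcript mix of Slc5a2, and its TPM moved with it. The effective length behind the TPM, which follows the mix of transcripts, was 1943 bases in pup 2 and 1602 in pup 1. Its expected counts were 281 in pup 2 and 277 in pup 1. The log2 ratio of pup 2 to pup 1 was -0.55 with TPM and -0.18 with normalized CPM, whose counting interval from -0.43 to 0.06 held 0. Slc2a5 also had a higher coding share in pup 2, 84.2%, than in pup 1, 63.1%, and its effective length was 2664 bases in pup 2 and 2152 in pup 1. Its direction differed between the scales. The log2 ratio of pup 2 to pup 1 was -0.26 with TPM and 0.14 with normalized CPM, whose counting interval from -0.03 to 0.31 held 0.

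Slc16a11 was the only detected member under 50% coding in both pups, with 43.99% in pup 1 and 40.1% in pup 2. Its largest transcript was the retained intron form Slc16a11-209, with 25.0% in pup 1 and 30.4% in pup 2. Slc16a5 kept 74.4% and 76.7% in coding transcripts in pups 1 and 2, and 22.3% and 17.6% in Slc16a5-204, a processed transcript without a reading frame. Slc5a9 had 65.0% in pup 1 and 53.6% in pup 2, with the processed transcript Slc5a9-204 next, and Slc5a12 had 76.0% in pup 1 and 79.9% in pup 2. For Slc5a6, coding transcripts held 38.9% in pup 1 and 62.9% in pup 2, but the rest lay in transcripts that M21 no longer lists, so its share is uncertain. The other members under 90% in both pups were Slc2a4, Slc16a4, Slc16a9, Slc2a2, Slc5a2 and Slc2a5.

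Several members split their coding message between transcripts. SGLT5 (Slc5a10) was made up of Slc5a10-203, with 75.5% in pup 1 and 66.4% in pup 2, and Slc5a10-204, with 23.5% in pup 1 and 32.8% in pup 2. SMIT2 (Slc5a11) had Slc5a11-201, with 39.8% in pup 1 and 41.4% in pup 2, beside Slc5a11-207, with 42.1% in pup 1 and 33.9% in pup 2, so neither led in both pups. MCT4 (Slc16a3) had Slc16a3-201 at 45.3% in pup 1 and 47.1% in pup 2, and Slc16a3-202 at 36.8% in pup 1 and 30.04% in pup 2. Here Slc16a3-201 led in both pups. In MCT2 (Slc16a7) one form, Slc16a7-202, held 85.5% in pup 1 and 84.6% in pup 2, close in both. The urate carrier Slc2a9 gave no stable picture: Slc2a9-210 had 58.7% in pup 1 and 12.6% in pup 2, at a gene level of 192 and 227 expected counts in pups 1 and 2. GLUT1 was carried almost whole by Slc2a1-201, at 99.5% in both pups.

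**Figure D3:**
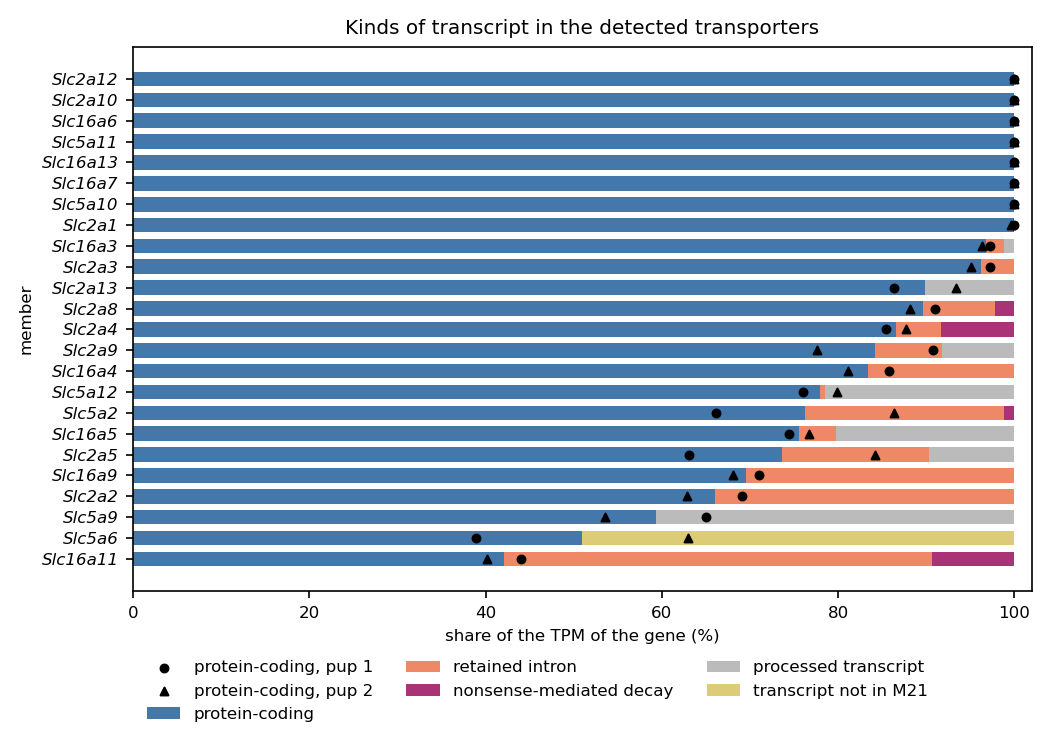
Share of each gene's TPM by kind of transcript, in percent, for 24 of the 25 detected transporters with more than 1 transcript; bars are means over the pups, and black circles (pup 1) and triangles (pup 2) mark the protein-coding share. Slc16a11 at the bottom is 43.99% and 40.1% protein-coding in pups 1 and 2, and the genes at the top lie at or close to 100%.

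Expected counts were not whole numbers in 7 of the 38 members, which marks genes whose reads were shared out with others; whole means within 0.005 of a whole number. Each of these 7 has exons that overlap another gene on the opposite strand, in 5 of them a protein-coding gene. Slc5a2 shares 597 of its 2897 exonic bases with BC017158 (19.3 and 17.7 TPM in pups 1 and 2), 26.2% of the coding transcript. Slc16a6 shares 1052 of 4883 exonic bases with Amz2, Slc5a10 393 of 2365 with Fam83g, Slc2a12 407 of 4237 with Tbpl1 and Slc5a6 396 of 3991 with Atraid. In pups 1 and 2, Amz2 had 26.96 and 24.19 TPM, Fam83g 2.23 and 2.3, Tbpl1 49.95 and 44.9, and Atraid 222 and 230. Of these overlapping genes, only Fam83g was below its member. Atraid and Tbpl1 were far above Slc5a6 (12.5 and 10.7 TPM) and Slc2a12 (2.27 and 2.38 TPM). How strand was treated in counting is not stated in the sources used here, so the levels of these 5 genes are uncertain. Slc2a1 and Slc16a5, the remaining members of the 7, overlap antisense genes over fewer bases, and the same limit applies to them. Slc2a1 shares 105 of 3506 exonic bases with Gm12868 (0.22 and 0 TPM in pups 1 and 2). Slc16a5 shares 104 of 3699 with Gm11695 (5.55 and 5.63 TPM in pups 1 and 2). Slc5a6 also shares sequence with other genes: 13.6% of its 50-base windows occur in Gm6157 on the same strand, and 20.8% in any other gene on either strand.

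Between the littermates the transporters were alike. Differences were taken as the log2 ratio of normalized CPM, pup 2 over pup 1, for genes with 50 or more expected counts in either pup. All 30 detected members met that minimum, and 0 of them were 2-fold apart, against a background of 0.397% of 13860 protein-coding genes. The median absolute difference was 0.08 over the 30 members and 0.09 over the protein-coding genes. For 11 of the 30 the 95% counting interval left out 0, against a background of 40.8% of the 13860 protein-coding genes. Of the 11, 7 were lower in pup 2 (background 20%) and 4 were higher (background 20.8%). That interval covers counting error only and leaves out variation between animals.

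Slc2a13 had the widest difference, with 339 expected counts in pup 2 and 187 in pup 1. Its log2 ratio was 0.64, with a counting interval from 0.39 to 0.92. On the other side stood Slc16a6, with 351 expected counts in pup 2 and 418 in pup 1, and a log2 ratio of -0.45 (interval -0.67 to -0.25). Slc2a10 followed at -0.39 (interval -0.62 to -0.18), with 318 expected counts in pup 2 and 363 in pup 1, and Slc5a11 at -0.33 (interval -0.54 to -0.13), with 378 in pup 2 and 414 in pup 1. The inositol carriers Slc2a13 and Slc5a11 thus leaned opposite ways. Each of the 4 was within 2-fold.

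On the TPM scale, 24 of the 30 detected members were lower in pup 2, against 71.5% of detected protein-coding genes. The median log2 ratio of TPM was -0.15 over the members and -0.09 over all detected protein-coding genes, and with normalized CPM these medians were -0.02 and 0.003, close to 0. All 5 detected sodium-coupled sugar and inositol carriers were lower in pup 2, with a sum of 47.2 TPM in pup 2 and 56.2 TPM in pup 1. Of the early proximal tubule markers 7 of 7 were lower in pup 2, with a sum of 741 TPM in pup 2 and 974 TPM in pup 1 and a median log2 ratio of normalized CPM of -0.18. The late proximal tubule markers had 2 of 5 lower in pup 2, with a sum of 143 TPM in pup 2 and 154 TPM in pup 1 and a median of 0.12. Other lists held lower TPM as well: 4 of 4 stroma markers, with 1141 TPM in pup 2 and 1307 TPM in pup 1. Lower too were 4 of 4 podocyte markers, with 199 TPM in pup 2 and 201 TPM in pup 1. With normalized CPM the median log2 ratio was -0.05 for stroma and 0.08 for podocyte markers. Some lists had higher sums in pup 2. Distal tubule and collecting duct markers summed to 1220 TPM in pup 2 and 1123 TPM in pup 1. Endothelium markers had 350 and 334 TPM, and leukocyte markers 193 and 180 TPM, in pups 2 and 1. The part of these markers in the difference was not tested.

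**Figure D4:**
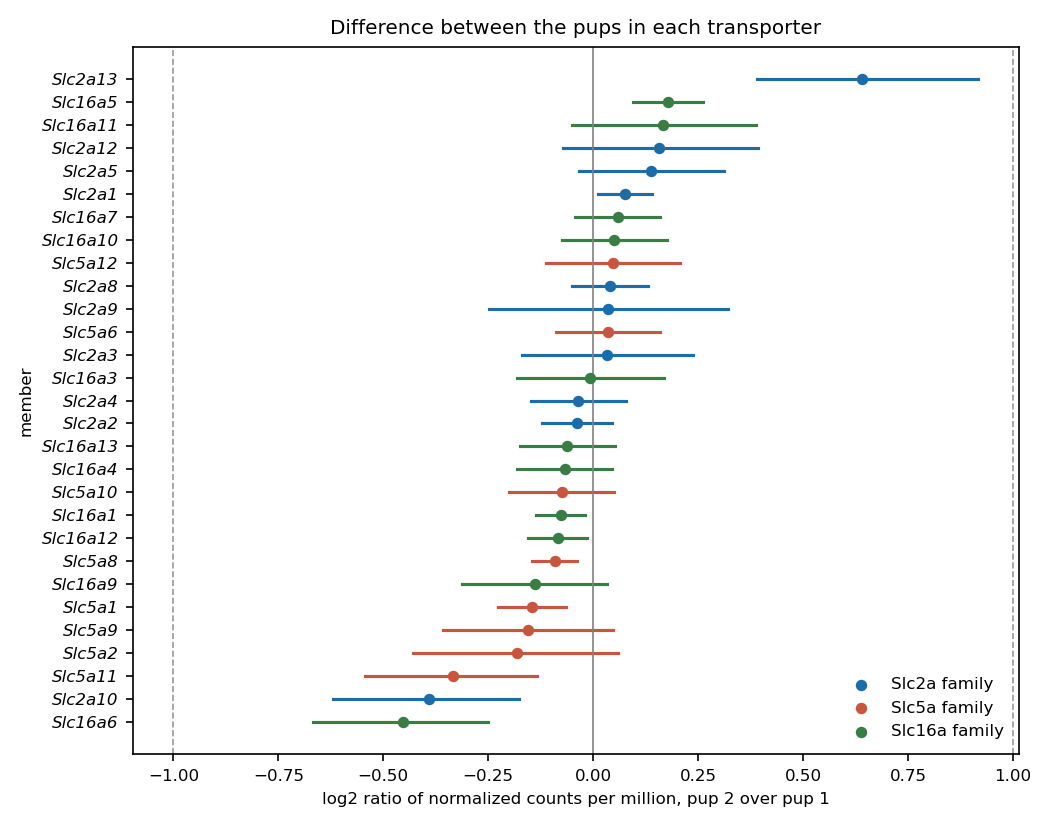
Log2 ratio of normalized CPM, pup 2 over pup 1, for 29 of the 30 detected transporters, coloured by family; lines are 95% counting intervals and dashed lines mark 2-fold. Slc2a13 is the highest at 0.64, Slc16a6 the lowest at -0.45, and no gene reaches a dashed line.

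The label of kidney tissue was checked against markers. All markers of the early and late proximal tubule, loop of Henle, distal tubule and collecting duct, podocyte, nephron progenitor, stroma and endothelium lists were detected. Markers of blood were present as well, with 4 of 6 erythroid and 4 of 5 leukocyte genes. Among cell types outside the kidney, 3 of 5 neuron and glia markers were detected, with a sum of 17.1 TPM in pup 1 and 14.1 TPM in pup 2. Of the liver and gut markers 4 of 5 were detected, with a sum, mainly of Afp and Ttr, of 186 TPM in pup 1 and 179 TPM in pup 2. Detection alone thus does not tell kidney from other tissue.

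Promoter sequence was available for 28 of the 38 members in RefSeq, of assembly GRCm38.p6, as the 250 bases before to 50 after the start of each gene. GC content and motifs were read only in the upstream 200 bases, from 250 to 51 before the start, so the stretch nearest the start was not searched. The 20 detected members among them had a median GC content of 56.8% there, the 8 others 51%, and all promoters 51.5%. Motifs were searched as exact letters on both strands. The GC box GGGCGG was in 8 of 28 members and 24.6% of all promoters, the CCAAT box CCAAT in 9 of 28 and 28.4%, and the nuclear receptor motif AGGTCA in 2 of 28 and 11.4%. The E-box CACGTG was in 3 of 28 members, Slc16a1, Slc16a12 and Slc5a1, and in 4.34% of all promoters. All 3 are detected genes. A match is a string of letters and not a binding site. The upstream 200 bases of the 3 genes are shown, from 250 to 51 bases before the start, with GC, CCAAT and E-box matches in capitals. They lie at chr3:104638414-104638613 (+ strand), chr19:34747379-34747578 (- strand) and chr5:33103969-33104168 (+ strand).
Slc16a1: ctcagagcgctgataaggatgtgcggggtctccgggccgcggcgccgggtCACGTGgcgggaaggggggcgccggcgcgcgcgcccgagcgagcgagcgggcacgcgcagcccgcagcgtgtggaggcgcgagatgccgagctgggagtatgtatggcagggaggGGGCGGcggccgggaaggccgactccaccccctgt
Slc16a12: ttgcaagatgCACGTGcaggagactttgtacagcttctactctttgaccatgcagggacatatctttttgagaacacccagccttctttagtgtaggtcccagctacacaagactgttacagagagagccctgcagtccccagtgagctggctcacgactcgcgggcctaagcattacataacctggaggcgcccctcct
Slc5a1: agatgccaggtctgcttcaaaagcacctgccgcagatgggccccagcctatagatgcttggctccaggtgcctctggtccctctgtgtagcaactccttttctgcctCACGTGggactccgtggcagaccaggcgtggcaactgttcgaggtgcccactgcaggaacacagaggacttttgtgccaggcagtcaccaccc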

How the data were processed

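Per the text deposited with each library, reads were quantified per library from transcriptome alignments on mm10 with GENCODE M4. Which aligner, software versions and strand setting were used is not given in the sources used here. Per the file headers, the authors deposited an expected count (estimated reads, not normalized), TPM and FPKM per gene and transcript, posterior mean versions, and the percent of a gene's TPM in each transcript. TPM of each library is scaled to a fixed total over all features, so a few abundant features move all others.

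Gene names, transcript kinds and coordinates were taken from GENCODE M21 of GRCm38, the same assembly, by identifier without version. M21 lengthens Slc2a2-201 from 2573 to 5569 bases and Slc2a1-201 from 2607 to 3260; the levels use the deposited lengths. For differences between pups, expected counts were rounded to whole numbers for the exact binomial intervals and scaled with TMM factors of edgeR 4.0.16 (R 4.3.3), with 0.1 CPM (counts scaled to the library total) added. DESeq2 1.42.0 size factors were an alternative. The ratio step was also run on simulated counts, whose means and spread were taken from these same libraries. Tables were handled with NumPy 2.4.6 and pandas 2.3.3 in Python 3.11.15, intervals computed with SciPy 1.17.1 and figures drawn with Matplotlib 3.10.9.

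Depth was 41584961 and 48823952 expected counts in pups 1 and 2. With 1 group and 2 pups no p-value was computed. Members are reported by value where detected and otherwise by value or range; a detected member and some list genes enter the counts and sums but are not reported here by name; other genes are named only where a pair, a list or the tissue check needs them. The members, lists and pairs were chosen with earlier results of these data known. The alternatives were other thresholds, units, pseudocounts, filters and scalings, each pup left out, and protein-coding transcripts alone, which was added after the data were seen.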

Additional observations from a re-analysis of the deposited data

How the results depend on the processing

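The number of detected transporters was 30 and lay between 29 and 30 under the other thresholds, units and scalings, with either pup alone, and with protein-coding transcripts alone, which was chosen after seeing the data. The 3 family ratios kept their direction under their 7 alternatives. Between 22 and 24 of the 25 gene pairs passed under the alternatives run on all of them, and 19 of the 22 pairs that hold a transporter passed with protein-coding transcripts alone. Without any filter on counts, 1 member was 2-fold apart between the pups; it was Slc16a8, named after its values were seen, with 2 counts in pup 2 and 8 in pup 1. Of the pairs that were not separable, Slc16a1 over Slc5a8 gave -0.26 with CPM, which is not corrected for length, and from -0.0020 to 0.012 when a pup was left out. Slc16a4 over Slc16a13 gave -0.0137 with posterior mean TPM, -0.0135 with CPM and -0.19 with protein-coding transcripts alone. Slc5a4a over Slc5a4b gave -0.25 with CPM, where Slc5a4a has no counts, and -0.83 with a pseudocount of 0.1. With CPM the limit is taken on the CPM scale, and the first and the last of these 3 pairs passed it, at 0.22 and 0.24. Under posterior mean shares, 17 members in place of 11 had under 90% in coding transcripts. The cause was not tested. No paired analysis was possible because there is 1 group. Counts under 50 limit what can be said of the 8 undetected members, and the spread of 2 littermates leaves out variation between litters.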
